A study of Mus musculus with 6 samples.

Results

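The prostaglandin and nitric oxide genes examined here are *Pla2g4a*, *Ptgs1*, *Ptgs2*, *Ptges*, *Ptgis*, *Ptger2*, *Ptger4*, *Hpgd* and *Nos2*. They were taken by their gene symbols, and all 9 were found among the 24532 genes of the expression table. Of these, 8 had a read in every library and were tested, while *Nos2* did not. The RNA came from primary articular chondrocytes of mice, in 3 cultures transfected with *Sephs1* siRNA and 3 cultures transfected with negative control siRNA. SEPHS1 is selenophosphate synthetase 1, and the comparison asks which transcripts differ once its mRNA is reduced. Both groups were cells from the knee ends of femur and tibia of ICR mice 5 days of age, kept in serum-containing medium under 3% oxygen. For siRNA work the methods also name a hyaluronidase treatment before transfection, under serum-free conditions. Both groups received 50 nM siRNA for 12 h followed by 48 h in fresh medium, and the transfection was done 2 times. The design text of the series calls the replicates biological, and how many mice went into each culture is not given in the sources used here. The p-values therefore measure the spread between these cultures.

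Prostaglandins are made on demand from membrane lipid. Cytosolic phospholipase A2 releases arachidonic acid, the cyclooxygenases PTGS1 and PTGS2 convert it to prostaglandin H2, and terminal synthases turn that into single prostanoids such as prostaglandin E2 and prostacyclin. The EP2 and EP4 receptors raise cyclic AMP when they bind prostaglandin E2, and 15-hydroxyprostaglandin dehydrogenase starts its breakdown. Inducible nitric oxide synthase, encoded by *Nos2*, makes nitric oxide from arginine. In cartilage, PTGS2 and NOS2 are best known as enzymes that interleukin-1 and other inflammatory signals induce in chondrocytes.

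The libraries held 58214060 to 80887889 counted reads. *Sephs1* stood at 36.1, 24.9 and 21.5 CPM (TMM-normalized counts scaled to library size) in *Sephs1* siRNA replicates 1, 2 and 3, against 50.7, 44.7 and 44.7 CPM in the control siRNA replicates. The groups did not overlap, and the log2 fold change of the target was -0.76 (standard error 0.19, unadjusted p = 0.00525, adjusted p = 0.392, edgeR). Once the replicate number entered the fit as a block, its adjusted p was 0.04. The labelled cell type was seen in the markers. *Col2a1*, the type II collagen gene, had 13176 to 15674 FPKM (fragments scaled to transcript length and library size) in *Sephs1* siRNA libraries and 14026 to 17346 FPKM in control libraries. Of the 16 chondrocyte markers tested, 14 had a negative log2 fold change (median -0.13), and their summed level was 21510 to 26380 FPKM with *Sephs1* siRNA and 22960 to 28940 FPKM with control siRNA. At an unadjusted p of 0.05 in edgeR, *Lect1* alone of the 16 was lower and none was higher, against 3.63% lower and 4.98% higher among all genes. With the replicate block 9 were lower and 1 was higher, against 11.2% and 13.1%, and 2 were lower at an adjusted p under 0.05, against 0.816%. The part of these marker values in the results that follow was not tested. The summed level of 17 macrophage and leukocyte markers was 6.495 to 8.431 FPKM in *Sephs1* siRNA libraries and 5.73 to 7.861 FPKM in control libraries. In that list *Itgam*, *Tyrobp*, *Fcer1g*, *Aif1*, *Cd3e*, *S100a8*, *S100a9* and *Cd163* were among those with no read in any library. Of the 12 endothelial markers *Cdh5*, *Tie1* and *Emcn* had no read either. *Eng*, the most abundant of that list, had 20.4 to 22.3 FPKM in *Sephs1* siRNA libraries and 21.9 to 23.0 FPKM in control libraries. The summed level of the 12 was 29.47 to 32.63 FPKM in *Sephs1* siRNA libraries and 31.49 to 36.04 FPKM in control libraries. The summed level of the 14 fibroblast and synovial markers, which articular chondrocytes in culture partly express themselves, was 4728 to 5454 FPKM in *Sephs1* siRNA libraries and 4592 to 5809 FPKM in control libraries.

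The upstream sequence of *Ptgs2* is shown because this gene had the highest level of the 9 and the widest spread between libraries of the 8 tested. *Ptgs2* is a protein-coding gene on the plus strand at chr1:150100031-150108234 of GRCm38.p6. The RefSeq promoter table held 300 bases around the start of 7 of the 9 genes, and 8 motifs were searched on both strands of every window. The 250 bases before its RefSeq start and the first 30 bases after it are printed 5′ to 3′. Capitals mark a GC box (GGGCGG), a palindromic C/EBP site (TTGCGCAA) and the stretch in which the short cyclic AMP response element CGTCA overlaps the E-box CACGTG.
*Ptgs2* chr1:150099781-150100030, plus strand: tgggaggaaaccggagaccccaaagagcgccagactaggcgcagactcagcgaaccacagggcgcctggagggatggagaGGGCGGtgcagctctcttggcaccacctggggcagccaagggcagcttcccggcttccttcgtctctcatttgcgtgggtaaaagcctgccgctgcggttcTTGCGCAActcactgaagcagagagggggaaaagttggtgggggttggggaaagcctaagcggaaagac
*Ptgs2* chr1:150100031-150100060, plus strand: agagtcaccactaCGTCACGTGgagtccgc
The GC box began 170 bases and the C/EBP palindrome 69 bases before the RefSeq start. Counted from that start, the short element began at base 14 and the E-box at base 17. Where transcription starts in these cells was not determined. Of 32841 mouse windows of the same length, 35.7% held GGGCGG, 0.183% held TTGCGCAA, 20.8% held CGTCA and 7.15% held CACGTG. Neither TATAAA (13.6% of windows), CCAAT (37.4%), TGANTCA (an AP-1 site, 7.81%) nor an NF-kB site (GGGA and TTCC with 2 bases between them, 1.47%) was matched in the *Ptgs2* window.

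*Ptges* and *Pla2g4a* are shown beside it because their groups did not overlap and they lay in opposite directions. The 250 bases before a RefSeq start of each gene, both on the minus strand, follow with the same marking, and the *Ptges* start used lies inside the annotated gene.
*Ptges* chr2:30903298-30903547, minus strand: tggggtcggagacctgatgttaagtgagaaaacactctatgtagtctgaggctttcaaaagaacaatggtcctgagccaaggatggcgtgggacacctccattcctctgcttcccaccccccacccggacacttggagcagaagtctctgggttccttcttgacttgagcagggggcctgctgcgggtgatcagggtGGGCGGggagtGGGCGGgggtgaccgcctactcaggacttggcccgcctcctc
*Pla2g4a* chr1:149961291-149961540, minus strand: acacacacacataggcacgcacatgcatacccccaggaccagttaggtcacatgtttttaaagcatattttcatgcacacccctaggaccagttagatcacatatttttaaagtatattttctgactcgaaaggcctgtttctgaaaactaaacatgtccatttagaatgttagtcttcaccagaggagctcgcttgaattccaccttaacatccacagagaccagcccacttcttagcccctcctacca
The *Ptges* stretch held 2 GC boxes, beginning 53 and 42 bases before the start. None of the 8 motifs was matched in the *Pla2g4a* stretch, while the window of a 2nd RefSeq start of the gene, not printed, held TATAAA on the reverse strand and CCAAT. A match is a string of letters in the genome and not a measured binding site.

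In these chondrocytes the 8 tested genes spanned a wide range of expression. On the length-scaled measure, mean FPKM in the *Sephs1* siRNA libraries was 138 ± 47.5 for *Ptgs2*, 21.7 ± 2.43 for *Ptgis*, 17.0 ± 1.453 for *Pla2g4a*, 7.66 ± 1.90 for *Hpgd*, 6.90 ± 0.826 for *Ptger4*, 5.28 ± 0.112 for *Ptgs1*, 4.84 ± 0.132 for *Ptges* and 0.0937 ± 0.0183 for *Ptger2* (SD, n = 3). In the control libraries mean FPKM was 121 ± 67.3 for *Ptgs2*, 23.7 ± 3.90 for *Ptgis*, 20.5 ± 3.36 for *Pla2g4a*, 5.61 ± 1.29 for *Hpgd*, 5.58 ± 1.22 for *Ptgs1*, 5.10 ± 1.33 for *Ptger4*, 3.99 ± 0.520 for *Ptges* and 0.0708 ± 0.0085 for *Ptger2* (SD, n = 3). *Ptgs2* thus lay above 96.8% of the genes tested in control cells and *Ptger2* above 3.36%. In that control order *Ptgis* and *Pla2g4a* did not differ beyond their spread, and neither did *Hpgd* and *Ptgs1*, *Ptgs1* and *Ptger4*, or *Ptger4* and *Ptges*.

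No gene of the 8 passed an adjusted p of 0.05 in edgeR, in DESeq2 or in limma on the FPKM values, and 0.0141% of all genes tested did so in edgeR. At an unadjusted p under 0.05, 1 of 8 passed in edgeR and in DESeq2, *Pla2g4a*, which was lower, while limma passed 0 on log2(FPKM + 1) and 1, *Ptges*, on log2(FPKM + 0.1). Among all 14223 genes 8.62% passed in edgeR, 4.98% higher and 3.63% lower. The unadjusted share of all genes in DESeq2 and limma is not given here, so their counts cannot be read against it. Fitted with a block for the replicate number, 4 of 8 passed the unadjusted threshold, *Ptges* and *Ptger4* higher and *Pla2g4a* and *Ptgis* lower, against 24.3% of all genes (13.1% higher, 11.2% lower). The median log2 fold change of the 8 was 0.18, with 5 positive and 3 negative, and that of all genes was 0.0092. For 3 of 8 genes the groups did not overlap, against 14.9% of all genes: *Ptges* and *Ptger2* were higher (7.8% of all genes) and *Pla2g4a* was lower (7.09%). Since the RNA came from whole cultures, fewer cells of a type and less RNA per cell cannot be told apart.

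**Figure D1:**
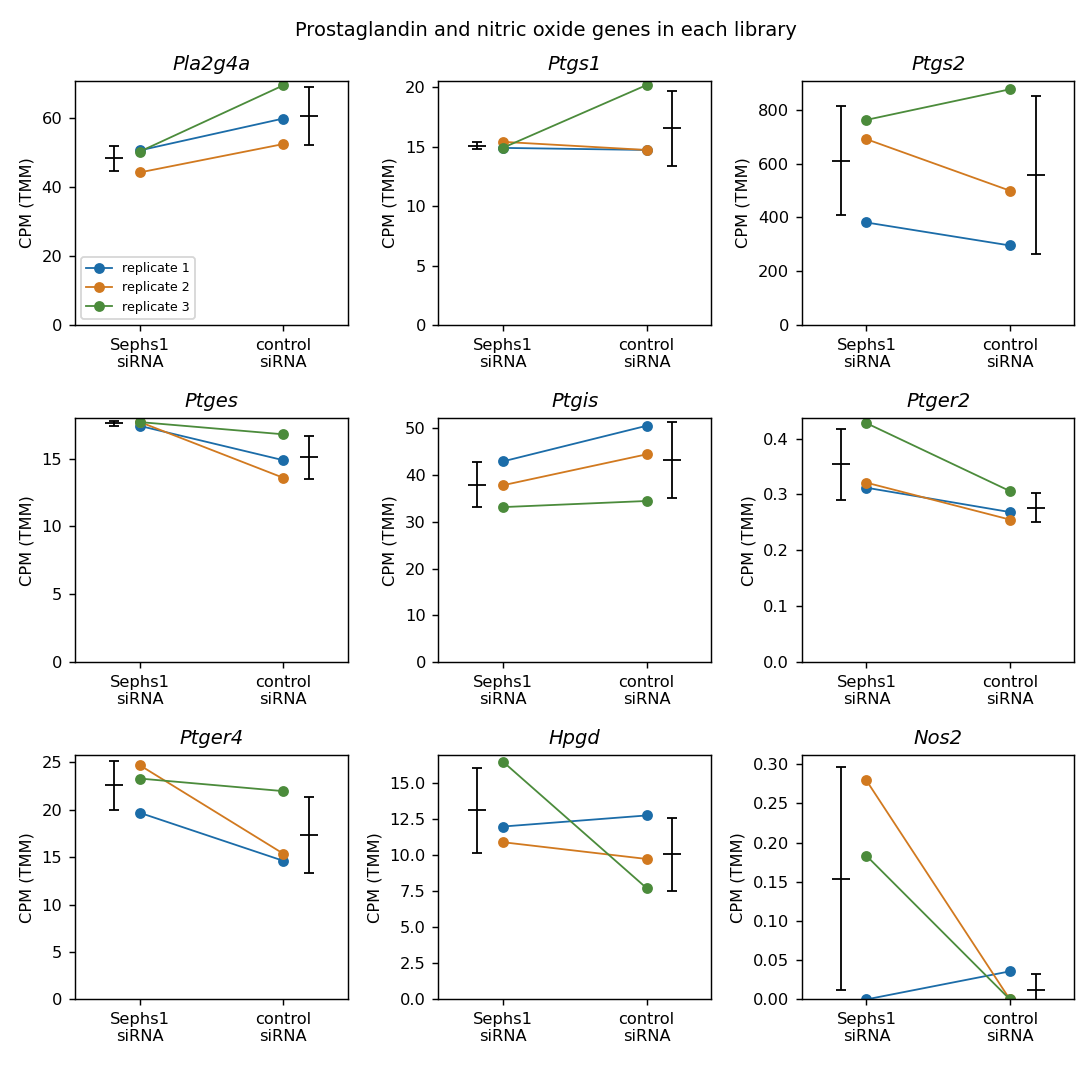
TMM-normalized level (CPM, linear axis from 0) of each of the 9 genes in the 3 *Sephs1* siRNA libraries (left) and the 3 negative control siRNA libraries (right) of each panel. Points are libraries, lines join libraries with the same replicate number, and bars are mean ± SD (n = 3). *Ptgs2* followed the replicate number in both groups, *Pla2g4a* was lower with *Sephs1* siRNA in each pair, and *Nos2* was at or near 0 throughout.

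*Pla2g4a*, at chr1:149829618-149961290 on the minus strand, encodes the calcium-dependent cytosolic phospholipase that supplies arachidonic acid. It stood at 50.7, 44.3 and 50.4 CPM in *Sephs1* siRNA replicates 1, 2 and 3, against 60.0, 52.5 and 69.6 CPM in the control replicates. All *Sephs1* siRNA libraries lay below all control libraries, and each was lower than the control of its own number, by 0.24, 0.25 and 0.47 on the log2 scale. Means were 48.5 ± 3.59 CPM with *Sephs1* siRNA and 60.7 ± 8.54 CPM with control siRNA (SD, n = 3 each), a log2 fold change of -0.32 (standard error 0.12, unadjusted p = 0.0274, adjusted p = 0.516, edgeR). With the replicate block it was -0.32 (standard error 0.060, unadjusted p = 0.00229, adjusted p = 0.0692, edgeR). In edgeR the call was lost without *Sephs1* siRNA replicate 2 (-0.26, unadjusted p = 0.092), without control replicate 1 (-0.34, unadjusted p = 0.0512) and without control replicate 3 (-0.21, unadjusted p = 0.0783), with adjusted p from 0.484 to 0.972. It was also lost in limma on log2(FPKM + 1) (-0.25, unadjusted p = 0.0911, adjusted p = 0.608) and on log2(FPKM + 0.1) (-0.26, unadjusted p = 0.088, adjusted p = 0.613). *Pla2g4a* and *Ptgs2* are transcribed away from each other on chromosome 1, with 138740 bases and 3 annotated genes between their starts.

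*Ptgs1*, the constitutive cyclooxygenase at chr2:36216742-36258593 on the plus strand, hardly varied in the knockdown cultures. Its level was 14.9, 15.4 and 14.9 CPM with *Sephs1* siRNA, against 14.7, 14.7 and 20.2 CPM with control siRNA. Only control replicate 3 stood off from the other 5 libraries. The log2 fold change was -0.13 (standard error 0.14, unadjusted p = 0.367, adjusted p = 0.809, edgeR), and it was 0.034 without that library.

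*Ptgs2*, the inducible cyclooxygenase, was by far the more abundant of the pair. It took 25650, 49458 and 49908 reads in *Sephs1* siRNA replicates 1, 2 and 3, and 16524, 39152 and 65797 reads in the control replicates. As CPM these were 381, 691 and 762 with *Sephs1* siRNA, against 296, 499 and 876 with control siRNA. Replicate 1 was the lowest and replicate 3 the highest in both groups, and the groups overlapped over most of their range. Within a group the highest library exceeded the lowest 2.00-fold with *Sephs1* siRNA and 2.96-fold with control siRNA. The coefficient of variation was 33.1% with *Sephs1* siRNA and 52.8% with control siRNA, and the control value exceeded that of 99.6% of the 1000 genes nearest in abundance. In share of all counted reads, *Ptgs2* took 0.0384%, 0.0696% and 0.0801% of the *Sephs1* siRNA libraries and 0.0284%, 0.0484% and 0.0883% of the control libraries.

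Between libraries of the same number, *Ptgs2* was 1.29-fold and 1.38-fold higher with *Sephs1* siRNA in replicates 1 and 2 and 0.870-fold in replicate 3. The mean was 611 ± 202 CPM with *Sephs1* siRNA and 557 ± 294 CPM with control siRNA (SD, n = 3 each). The log2 fold change was 0.13 (standard error 0.42, unadjusted p = 0.757, adjusted p = 0.939, edgeR), far within the spread between cultures. With the replicate block the standard error was 0.13, and the log2 fold change was 0.21 (unadjusted p = 0.154, adjusted p = 0.367, edgeR). The value hung on single libraries. It was -0.18 without control replicate 1, -0.056 without *Sephs1* siRNA replicate 3 and 0.62 without control replicate 3. Over the pairs 1 and 2 alone, with the block, it was 0.42 (adjusted p = 0.0043, edgeR), in a fit where 8.24% of all genes passed the adjusted threshold. With the block without pair 1 it was 0.12 (unadjusted p = 0.456, adjusted p = 0.745, edgeR). Without pair 2 it was 0.082 (unadjusted p = 0.531, adjusted p = 0.794, edgeR). *Ptgs2* exceeded *Ptgs1* in FPKM 16.4-fold, 28.8-fold and 32.8-fold in the *Sephs1* siRNA libraries, against 12.9-fold, 21.8-fold and 27.9-fold in the control libraries.

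*Ptges*, at chr2:30889471-30931020 on the minus strand, encodes microsomal prostaglandin E synthase-1, the inducible terminal enzyme for prostaglandin E2. It read 17.4, 17.7 and 17.7 CPM with *Sephs1* siRNA, against 14.9, 13.6 and 16.8 CPM with control siRNA. The *Sephs1* siRNA libraries were all above the control libraries and almost equal to each other. Their mean was 17.6 ± 0.164 CPM, against 15.1 ± 1.61 CPM with control siRNA (SD, n = 3 each). On the log2 scale the difference was 0.22 (standard error 0.10, unadjusted p = 0.0616, adjusted p = 0.614, edgeR), so *Ptges* missed the unadjusted threshold. It passed with the replicate block (0.23, unadjusted p = 0.0338, adjusted p = 0.172, edgeR), but not with the block without pair 1 (0.21, unadjusted p = 0.104) or without pair 2 (0.15, unadjusted p = 0.21, edgeR). With 1 library left out and no block, it was 0.31 without control replicate 3 (unadjusted p = 0.0145, edgeR) and 0.14 without control replicate 2 (unadjusted p = 0.219).

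*Ptgis* encodes prostacyclin synthase and lies at chr2:167203194-167252150 on the minus strand. Its level was 42.9, 37.8 and 33.2 CPM with *Sephs1* siRNA, against 50.5, 44.4 and 34.5 CPM with control siRNA. Both groups were highest in replicate 1 and lowest in replicate 3, the reverse of *Ptgs2*, and they overlapped. Each *Sephs1* siRNA library was below the control of its own number, by 0.24, 0.23 and 0.056 on the log2 scale. Without the block *Ptgis* differed by -0.18 on the log2 scale (standard error 0.16, unadjusted p = 0.287, adjusted p = 0.784, edgeR). With it the value was -0.17 and the standard error was 0.055 (unadjusted p = 0.0205, adjusted p = 0.136, edgeR). Single libraries moved the unblocked value. It was -0.32 without control replicate 3 (unadjusted p = 0.0468), -0.066 without control replicate 1 (unadjusted p = 0.686) and -0.095 without *Sephs1* siRNA replicate 3 (unadjusted p = 0.598, edgeR). The call with the block was lost without pair 1 (-0.16, unadjusted p = 0.0942) and without pair 2 (-0.15, unadjusted p = 0.127, edgeR).

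Both prostaglandin E2 receptors that signal through cyclic AMP were detected, at very different levels. *Ptger4*, which encodes EP4 at chr15:5233399-5244187 on the minus strand, read 19.7, 24.7 and 23.3 CPM with *Sephs1* siRNA, against 14.6, 15.4 and 21.97 CPM with control siRNA. The groups overlapped in 1 library, since control replicate 3 exceeded *Sephs1* siRNA replicate 1, and each pair was higher with *Sephs1* siRNA, by 0.43, 0.68 and 0.085 on the log2 scale. Means were 22.6 ± 2.59 CPM with *Sephs1* siRNA and 17.3 ± 4.04 CPM with control siRNA (SD, n = 3 each). The log2 fold change of 0.38 (standard error 0.18, unadjusted p = 0.0688, adjusted p = 0.624, edgeR) missed the unadjusted threshold. It passed with the block (0.40, unadjusted p = 0.0173, adjusted p = 0.126, edgeR), but not with the block without pair 1 (0.37, unadjusted p = 0.0549) or without pair 2 (0.25, unadjusted p = 0.0742, edgeR). With 1 library left out and no block, it was 0.59 without control replicate 3 (unadjusted p = 0.00304, edgeR), 0.26 without control replicate 1 (unadjusted p = 0.199) and 0.29 without control replicate 2 (unadjusted p = 0.193). Exons of *Ptger4* overlap those of *Ttc33* on the opposite strand, and whether the counting used strand is not stated, so reads in the overlap cannot be assigned to one of them.

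*Ptger2*, which encodes EP2 at chr14:44988111-45003820 on the plus strand, had 21, 23 and 28 reads with *Sephs1* siRNA, against 15, 20 and 23 reads with control siRNA. As CPM these were 0.312, 0.321 and 0.428, against 0.269, 0.255 and 0.306 with control siRNA. The groups did not overlap in CPM, but at these counts the log2 fold change of 0.35 had a standard error of 0.26 (unadjusted p = 0.218, adjusted p = 0.747, edgeR), and a difference was not detectable at this depth. In FPKM *Ptger4* exceeded *Ptger2* 63.5-fold to 88.5-fold in *Sephs1* siRNA libraries and 62.5-fold to 82.3-fold in control libraries. Antisense transcripts are annotated over exons of *Ptger2*, *Ptgs1* and *Ptgis*, and the same limit of strand holds for them.

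*Hpgd*, at chr8:56294552-56321046 on the plus strand, encodes the dehydrogenase that inactivates prostaglandin E2. Its level was 12.0, 10.9 and 16.4 CPM with *Sephs1* siRNA, against 12.7, 9.72 and 7.71 CPM with control siRNA. *Sephs1* siRNA replicate 3 was the highest of the 6 libraries and control replicate 3 the lowest, and the other 4 lay between them with the groups mixed. The 3 pairs differed by -0.089, 0.16 and 1.09 on the log2 scale, so the mean difference rested on pair 3. *Hpgd* differed by 0.38 on the log2 scale (standard error 0.23, unadjusted p = 0.138, adjusted p = 0.695, edgeR). With the block and without pair 3 it was 0.036, and without control replicate 1 it was 0.58 (unadjusted p = 0.0432, edgeR). The FPKM ratio of *Ptges*, which makes prostaglandin E2, to *Hpgd*, which degrades it, was 0.685, 0.767 and 0.507 with *Sephs1* siRNA and 0.551, 0.659 and 1.03 with control siRNA, with the groups overlapping.

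**Figure D2:**
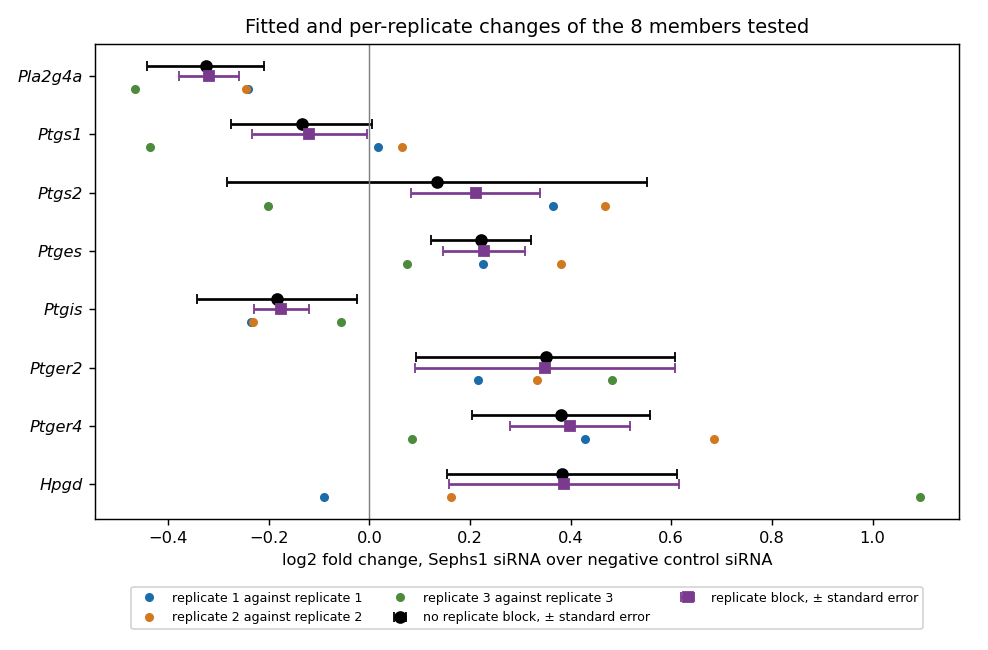
Log2 fold changes of the 8 tested genes, *Sephs1* siRNA over negative control siRNA, with positive values higher with *Sephs1* siRNA. Black circles (no block) and purple squares (replicate block) are edgeR estimates ± standard error, and small coloured points are the 3 pairs of libraries with the same number. *Pla2g4a* and *Ptgis* lie left of 0 in each pair, *Ptges*, *Ptger2* and *Ptger4* lie right of 0 in each pair, and the interval of *Ptgs2* narrows most with the block.

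*Nos2*, at chr11:78920787-78960226 on the plus strand, was at the limit of detection. It had 0, 20 and 12 reads in *Sephs1* siRNA replicates 1, 2 and 3, against 2, 0 and 0 reads in the control replicates. Summed over a group, this is 32 of 200263309 reads with *Sephs1* siRNA and 2 of 213637683 with control siRNA. The ratio of 17.1 has a 95% exact interval of 4.35 to 147, which covers counting error only. The libraries at 0 allow up to 3 reads, which per library total are 0.0449 CPM in *Sephs1* siRNA replicate 1 and 0.0371 and 0.0402 CPM in control replicates 2 and 3. Over the libraries the difference did not pass an exact permutation test (2-sided p = 0.4, where 0.1 is the smallest that 3 against 3 can give). In edgeR without the filter on zeros its log2 fold change was 3.69 (standard error 1.75, unadjusted p = 0.0725, adjusted p = 0.722), a value that depends on the prior count. The reads of *Sephs1* siRNA came from 2 of the 3 cultures. The 1 culture with none, replicate 1, had the lowest *Ptgs2* (381 CPM) and the highest *Sephs1* (36.1 CPM) of that group. In the control group it went the other way, since replicate 1, which alone had *Nos2* reads, had the lowest *Ptgs2* (296 CPM). A relation of *Nos2* to either gene was not tested.

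The coefficient of variation was lower with *Sephs1* siRNA than with control siRNA for 7 of the 8 tested genes (all but *Ptger2*), against 55.2% of all genes tested. Control replicate 3 was the highest control library for 6 of 8 (*Pla2g4a*, *Ptgs1*, *Ptgs2*, *Ptges*, *Ptger2* and *Ptger4*), against 39.1% of all genes. Without that library 3 of 8 passed the unadjusted threshold (*Ptges* and *Ptger4* higher, *Ptgis* lower), against 11.2% of all genes. The library was singled out from these same values, so no conclusion is drawn from this count. Leaving out any other library gave a count of 0 or 1. With the block over pairs 1 and 2, 4 of 8 passed the adjusted threshold (*Ptgs2* and *Ptger4* higher, *Pla2g4a* and *Ptgis* lower), against 8.24% of all genes. With the block without pair 1, and again without pair 2, 0 of 8 passed it. The share of all genes in those fits is not given here, so these counts cannot be compared. Nothing in the labels sets control replicate 3 apart, and leaving out a pair under the block was added after the values were seen.

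The other genes of the pathway were taken from written lists, 113 tested genes in all, of which 15 (12 higher, 3 lower) passed the unadjusted threshold, against 8.62% of all genes. No gene of them passed an adjusted p of 0.05 in edgeR (0.0141% of all genes) or in limma. In DESeq2 *Nos1* and *Pde4b* passed it (1.61% of all genes with an adjusted p). With the replicate block *Nos1*, *Nr4a2*, *Pde4b* and *Tsc22d3* were among those that did (1.65% of all genes, 0.83% higher and 0.816% lower). The unadjusted count of 15 was 28 of 113 with the block, close to the 24.3% of all genes in that fit. Without the block it was 7 without *Sephs1* siRNA replicate 2 and 8 without control replicate 1. Because the lists were chosen with earlier results of these data known, no conclusion is drawn from these counts.

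**Figure D3:**
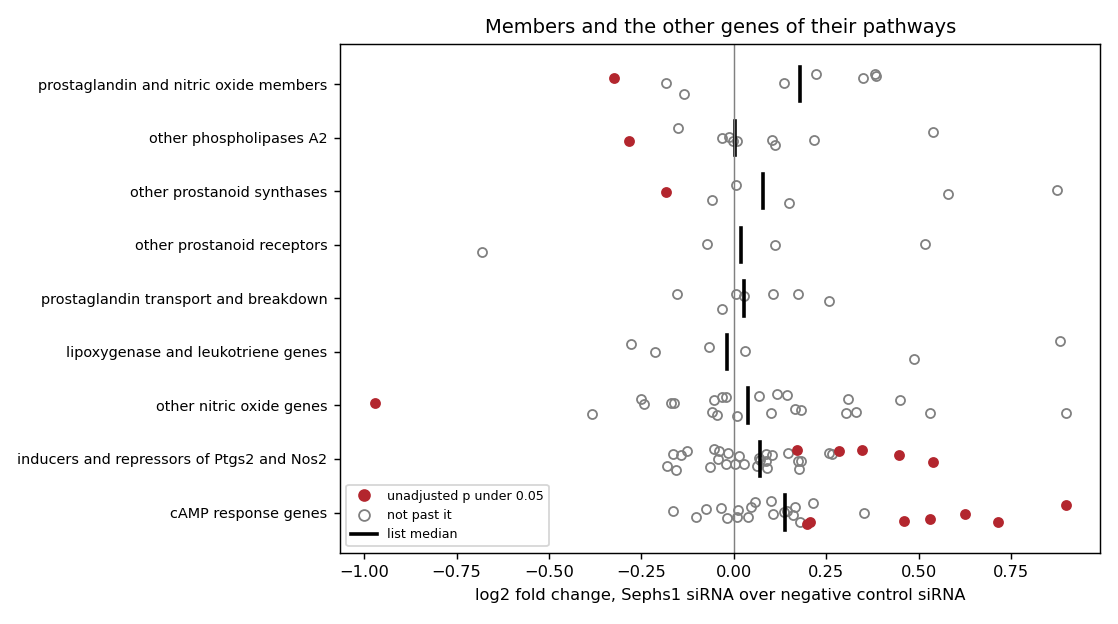
Log2 fold change (*Sephs1* siRNA over negative control siRNA) of every tested gene of the 9 prostaglandin and nitric oxide genes and of the 8 lists around them, 1 point per gene. Filled points had an unadjusted p under 0.05 in edgeR, and black bars are list medians. *Nos1* is the filled point at -0.97, and the filled points of the bottom 2 lists all lie right of 0.

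In arachidonic acid release and prostanoid synthesis, the 10 tested genes of the other phospholipases A2 held 1 that was lower at the unadjusted threshold, *Pla2g16*, a phospholipase best known from fat tissue, and none that was higher. With the replicate block *Pla2g5* and *Pla2g15* were higher (log2 fold changes 0.55 and 0.22, unadjusted p = 0.00693 and 0.00621, adjusted p = 0.0906 and 0.0886, edgeR), named after their values were seen, and 1 was lower. *Pla2g16* averaged 12.7 ± 0.688 CPM with *Sephs1* siRNA and 15.5 ± 1.56 CPM with control siRNA (SD, n = 3 each), a log2 fold change of -0.28 (standard error 0.11, unadjusted p = 0.032, edgeR). That call held only in the fits without *Sephs1* siRNA replicate 3 (-0.32) and without control replicate 2 (-0.37) when 1 library was left out. The secreted enzymes *Pla2g2a*, *Pla2g2d*, *Pla2g2f*, *Pla2g10* and *Pla2g12b* and the cytosolic *Pla2g4b* and *Pla2g4d* had no read in any library. The list median was 0.0031. Of the 6 other prostanoid synthases tested, *Ptges3*, an HSP90 co-chaperone also named cytosolic prostaglandin E synthase, was lower. It averaged 122 ± 4.84 CPM with *Sephs1* siRNA, against 139 ± 0.689 CPM with control siRNA (SD, n = 3 each), a log2 fold change of -0.18 (standard error 0.06, unadjusted p = 0.0181, edgeR), and it passed in 6 of 6 fits with a library left out. None of the 4 other prostanoid receptors, the 7 genes of transport and breakdown or the 6 lipoxygenase and leukotriene genes passed at the unadjusted threshold without the block, and their medians were 0.018, 0.028 and -0.018. With the block 1 other synthase was higher and 1 lower, and 0 receptors passed. In that fit 1 gene of transport and breakdown was higher and 1 lipoxygenase and leukotriene gene was lower. Among all genes 13.1% were higher and 11.2% lower with the block, and 4.98% and 3.63% without it.

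*Nos1*, the neuronal nitric oxide synthase gene, stood at 10.6, 10.4 and 7.62 CPM with *Sephs1* siRNA, against 21.3, 19.1 and 15.8 CPM with control siRNA. Each pair was lower with *Sephs1* siRNA, and the groups did not overlap. Its log2 fold change was -0.97 (standard error 0.17, unadjusted p = 0.000783, adjusted p = 0.342, edgeR), and its adjusted p was 0.0183 with the replicate block and 0.00012 in DESeq2. It passed the unadjusted threshold in 6 of 6 fits with a library left out. Unlike *Nos2*, it was well above the floor in every library. It was 1 of 24 tested genes in the list of other nitric oxide genes, and the only one of them to pass the unadjusted threshold without the block. Without the block 8.62% of all genes passed. With the block 1 gene of the list was higher and 2 were lower, against 13.1% and 11.2% of all genes. The list median was 0.039.

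Among 32 tested genes known to induce or repress *Ptgs2* or *Nos2*, 5 were higher at the unadjusted threshold and none was lower, against 4.98% and 3.63% of all genes. With the block 6 were higher and 1 was lower, against 13.1% and 11.2%. This list too was chosen with earlier results of these data known, and no conclusion is drawn from its counts. *Il1a*, *Il1b*, *Tnf* and *Ifng*, the cytokines that induce both enzymes, had no read in any library. *Tsc22d3*, which encodes the glucocorticoid-induced leucine zipper, a repressor of inflammatory transcription, stood at 36.3, 40.0 and 39.9 CPM with *Sephs1* siRNA, against 27.8, 32.4 and 31.1 CPM with control siRNA. Its log2 fold change was 0.35 (standard error 0.09, unadjusted p = 0.00515, adjusted p = 0.392, edgeR), and its adjusted p was 0.0392 with the block. *Irf1*, an interferon-responsive transcription factor, differed by 0.28 on the log2 scale (standard error 0.08, unadjusted p = 0.0114, edgeR). Both passed the unadjusted threshold in 6 of 6 fits with a library left out. *Tlr3* (0.54) and *Crebbp* (0.17) were also higher and are named after their values were seen. *Tlr3* passed in 4 of 6 such fits, and not without *Sephs1* siRNA replicate 2 (0.42) or control replicate 1 (0.38), and *Crebbp* passed in 0, with values from 0.13 to 0.19. The list median was 0.069, and the summed macrophage and leukocyte markers overlapped between the groups in the ranges given above, and their part in these values was not tested.

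The list of cyclic AMP signalling and response genes, which holds *Ptgs2* itself, had 7 of 26 tested genes higher at the unadjusted threshold and none lower, against 4.98% and 3.63% of all genes. Its median log2 fold change was 0.14, with 21 positive and 5 negative. Since this list was chosen with earlier results of these data known, no conclusion is drawn from its count. *Pde4b* and *Pde3a* encode phosphodiesterases that break cyclic AMP down. *Pde4b* stood at 24.0, 23.9 and 23.0 CPM with *Sephs1* siRNA, against 17.2, 18.8 and 15.5 CPM with control siRNA. Its log2 fold change was 0.46 (standard error 0.09, unadjusted p = 0.00176, adjusted p = 0.36, edgeR), and its adjusted p was 0.0462 with the block and 0.00927 in DESeq2. *Pde3a* differed by 0.20 on the log2 scale (standard error 0.07, unadjusted p = 0.0291, edgeR), which passed only without *Sephs1* siRNA replicate 3 or control replicate 3 when 1 library was left out.

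Of the other 5 called genes (*Nr4a1*, *Nr4a2*, *Nr4a3*, *Sik1* and *Adcy9*), the 3 *Nr4a* genes were looked at after their values were seen. They encode orphan nuclear receptors of the immediate early response, which cyclic AMP and prostaglandin E2 induce in many cells. *Nr4a1* read 116, 115 and 147 CPM with *Sephs1* siRNA, against 55.6, 61.0 and 114 CPM with control siRNA. *Nr4a3* read 12.3, 13.7 and 16.5 CPM with *Sephs1* siRNA, against 4.78, 6.01 and 11.9 CPM with control siRNA. Control replicate 3 again stood above the other control libraries, close to the lowest *Sephs1* siRNA library. The log2 fold changes were 0.71 for *Nr4a1* and 0.90 for *Nr4a3* (unadjusted p = 0.0382 and 0.0325, adjusted p = 0.553 and 0.54, edgeR). Without control replicate 3 they were 1.11 and 1.39. With 1 library left out, *Nr4a1* passed the unadjusted threshold only without control replicate 3, and *Nr4a3* only without that library or *Sephs1* siRNA replicate 1 (0.98). *Nr4a2* read 21.5, 23.2 and 28.3 CPM with *Sephs1* siRNA, against 13.1, 15.7 and 21.8 CPM with control siRNA, and its groups overlapped. It passed without control replicate 3 (0.76) or *Sephs1* siRNA replicate 1 (0.60) and in no other such fit.

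The count of 7 cyclic AMP genes rested on single libraries. It was 3, 1 and 2 without *Sephs1* siRNA replicates 1, 2 and 3, and 1, 4 and 6 without control replicates 1, 2 and 3. With the replicate block it was 11 (9 higher, 2 lower), against 13.1% of all genes higher and 11.2% lower. *Pde4b* was the one that passed in 6 of 6 such fits among those named.

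**Figure D4:**
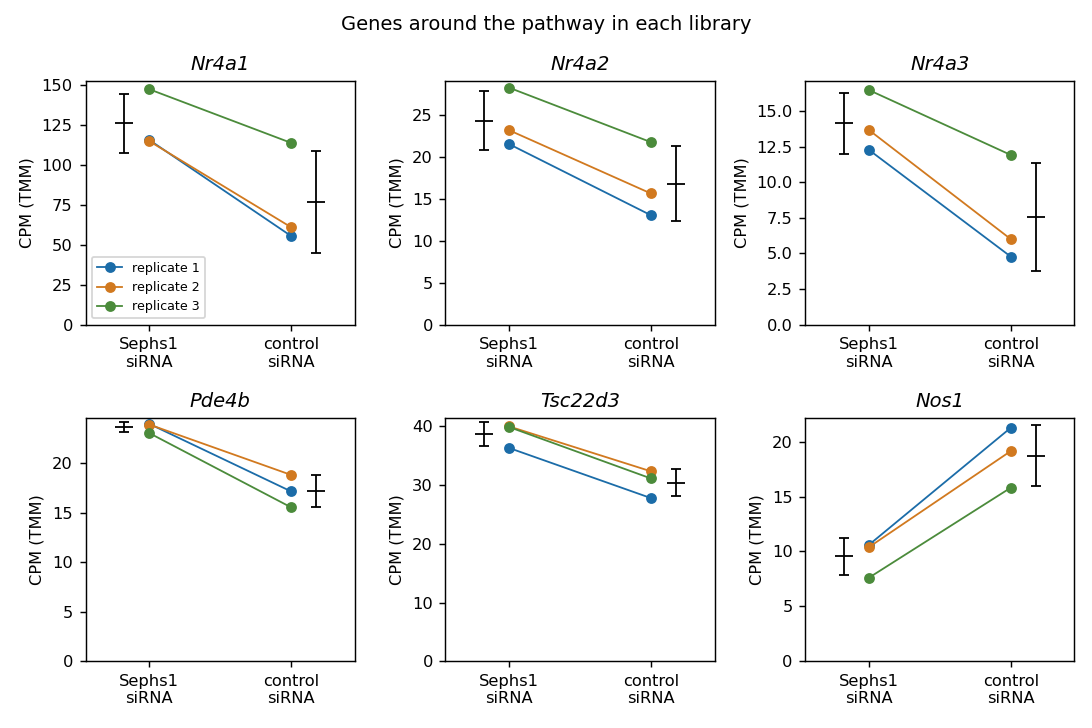
TMM-normalized level (CPM, linear axis from 0) of *Nr4a1*, *Nr4a2*, *Nr4a3*, *Pde4b*, *Tsc22d3* and *Nos1* in the *Sephs1* siRNA libraries (left) and the negative control siRNA libraries (right). Lines join libraries with the same replicate number, and bars are mean ± SD (n = 3). Every line of *Nos1* is lower with *Sephs1* siRNA, every line of the other 5 genes is higher, and control replicate 3 is the highest control library of the *Nr4a* genes.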

How the data were processed

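The authors aligned reads of stranded poly-A libraries with HISAT2 2.1.0 to mm10 and quantified transcripts with StringTie 1.3.4d. For every gene the deposited table gives raw read counts and FPKM, which the authors scaled to transcript length and library size. Whether counting used strand is not given in the sources used here.

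Only genes with a read in each library were tested, after the study's own filter, 14223 of 24532. Counts were tested in edgeR 4.0.16 (R 4.3.3) by TMM scaling and the quasi-likelihood test, with Benjamini-Hochberg adjustment over all genes tested. CPM values carry the TMM factors, and standard errors were derived from the F statistic and the log2 fold change. Alternatives were other size factors, no filter, filterByExpr, the replicate number as a block, DESeq2 1.42.0, limma 3.58.1 after adding 1 or 0.1 to FPKM and taking log2, and each library left out. The block without each pair and the block without the filter were added after seeing the data.

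Deviations from the mean of the group correlated between same-numbered libraries at 0.47, 0.235 and 0.451 (14223 genes), and at -0.027 or less across numbers. Each same-number value exceeded 0.1, and the libraries were treated as paired by number. The labels state no pairing, and the main fit has no block because the study's methods name none. Libraries of 1 group differed by more than sampling noise.

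The 9 genes and the lists were chosen with earlier results of these data known. Named were the 9 genes, *Sephs1*, and from each other list up to 2 genes in each direction with the smallest unadjusted p under 0.05 and at least 1 CPM. Of each marker list, those without a read and the 2 most abundant were eligible, and osteoblast markers (summed level 719.7 to 872.3 FPKM with *Sephs1* siRNA, 629.3 to 693.2 FPKM with control siRNA) were measured too. Most of that sum was *Spp1*, at 709.7 to 854.6 FPKM with *Sephs1* siRNA and 607.5 to 677.0 FPKM with control siRNA. *Alpl* went the other way, at 2.66 to 5.04 FPKM with *Sephs1* siRNA and 6.50 to 10.3 FPKM with control siRNA. Of the 7 osteoblast markers tested, 3 log2 fold changes were positive and 4 negative (median -0.19). Gene positions and promoter sequences come from RefSeq on GRCm38.p6, the assembly of mm10, and overlapping genes from GENCODE. Some genes of the lists are counted but not reported here by name.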

Additional observations from a re-analysis of the deposited data

How the results depend on the processing

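Of 145 values of the 9 genes under the alternatives, 117 kept their direction and side of the unadjusted threshold, 19 newly passed it, 5 no longer did and 4 changed sign. The sign changes were *Ptgs1* (0.034 without control replicate 3, 0.041 with the replicate block without pair 3, and -0.22 to 0.034 with 1 library left out) and *Ptgs2* (-0.056 without *Sephs1* siRNA replicate 3, -0.18 without control replicate 1, and -0.18 to 0.62 with 1 library left out). Of 252 values of *Sephs1* and the other named genes, 210 kept theirs, 42 no longer passed and 0 changed sign. The count of 1 passing gene was 4 with the replicate block, under either scaling or without the filter, 2 with the block without pair 1, 5 with the block without pair 3, 0 in limma on log2(FPKM + 1), and 0 to 3 with 1 library left out. The adjusted count of 0 was 4 with the block without pair 3, where 8.24% of all genes passed. It was 0 with the block without pair 1 or without pair 2, and 0 to 0 with 1 library left out. The 7 cyclic AMP genes became 11 with the block, under either scaling, without the filter or without pair 3, and 1 to 6 with 1 library left out. The 15 genes of all lists became 28 with the block (of 113, where 24.3% of all genes passed) and also without the filter, 30 with the block and RLE scaling, 25 without pair 2, 36 without pair 3, and 7 to 18 with 1 library left out. For the unadjusted counts, the share of all genes is given here only for edgeR with and without the block and without control replicate 3. For the adjusted counts, it is given only for edgeR with and without the block, for the block without pair 3, and for DESeq2. Counts in the other fits therefore cannot be read as a result about these genes. The cause of these shifts was not tested. With 3 libraries a group and no block, changes as small as those of most of these genes lie within the spread between cultures. The block lowered the standard error of *Ptgs2* from 0.42 to 0.13 and that of *Ptgis* from 0.16 to 0.055. In that fit 0 of 8 genes passed the adjusted threshold. *Ptger2* and *Nos2* are limited by their low counts.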
